A study of Mus musculus with 13 samples.

Results

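The genes described here are the clade B serpins (symbols starting with Serpinb), the kallikrein-related peptidases Klk4 to Klk15 and the kallikrein inhibitor Spink5. They were taken by gene symbol alone, among genes annotated as protein-coding, and 39 genes met the rule, all of them among the 56085 rows of the deposited count table (55332 rows held values). They comprise 12 kallikreins in 1 cluster on chromosome 7, 11 clade B serpins on chromosome 1, 15 clade B serpins on chromosome 13, and Spink5 on chromosome 18. In GRCm38 the kallikreins span chr7:43690418-43939639, the serpins chr1:106861173-107610484 and chr13:32842092-34002794, and Spink5 chr18:43963235-44022501, and reads were counted over whole transcripts. Serpinb10 and Serpinb1-ps1 carried pseudogene biotypes and were left out.

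RNA was sequenced from 13 mouse NUT carcinomas (mNC), squamous tumors that arise after Cre recombinase acts on 1 engineered NCT allele (NCT+/-). The 4 oral Sox2 wild-type tumors were KRT14-Cre; NCT+/- and the 4 pancreatic Sox2 wild-type tumors Pdx1-Cre; NCT+/-. The 2 oral Sox2 knockout (KO) tumors added Sox2fl/fl, with the driver spelled KRT4Cre in their labels, and the 3 pancreatic KO tumors were labelled Pdx1-Cre; NCT+/-; Sox2fl; fl. Each tumor gave 1 library, and mouse ages were not given in the sources used here. All groups therefore carried a Cre and the NCT allele, so the wild-type groups are wild type for Sox2 alone. KRT14-Cre acts in basal cells of oral mucosa, skin and salivary gland, and Pdx1-Cre in the pancreatic lineage, so tissue and Cre driver cannot be told apart. Whole tumors were sequenced, in which fewer cells of a type and less RNA per cell cannot be told apart.

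Kallikreins 5, 7 and 14 are secreted serine proteases of stratified epithelium. They cut the desmosomal proteins that hold the outermost cells together, and kallikrein 5 can activate the others. Spink5 encodes LEKTI, a secreted multidomain inhibitor of these kallikreins, and its loss causes Netherton syndrome, a disease of excess shedding and inflammation. Most clade B serpins lack a classical signal peptide and act inside cells. There they trap serine or cysteine proteases by an irreversible change of shape, although some, such as maspin (Serpinb5), do not inhibit proteases.

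Upstream sequence differed between the 3 gene clusters, and a few windows are shown. They were chosen with the values of these genes known, and a link between the letters and those values was not tested. Windows came from RefSeq (GRCm38.p6) and reached 250 bases before each annotated start. They existed for 36 of the 39 genes and were searched on both strands. The letters TGANTCA (N any base) are a looser form of the AP-1 element that Fos and Jun family dimers bind, TGACTCA or TGAGTCA. They lay in 6 of 10 chromosome 1 serpins with a window, in 0 of 12 kallikreins and in 0 of 14 chromosome 13 serpins. Over all 27025 genes the share was 7.82%. Among the windows below, Serpinb7 and Serpinb8 held TGAGTCA, and the others held A or T in place of N. The 6 chromosome 1 windows, each from the gene's own strand with these letters in capitals, read as follows.
Serpinb5 (chr1:106861015-106861061, plus strand): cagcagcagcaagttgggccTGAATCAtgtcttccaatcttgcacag
Serpinb12 (chr1:106934384-106934430, plus strand): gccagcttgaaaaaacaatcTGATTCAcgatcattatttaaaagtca
Serpinb11 (chr1:107362218-107362264, plus strand): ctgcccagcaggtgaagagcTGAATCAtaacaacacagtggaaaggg
Serpinb7 (chr1:107422624-107422670, plus strand): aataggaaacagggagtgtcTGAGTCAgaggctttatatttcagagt
Serpinb2 (chr1:107511309-107511355, plus strand): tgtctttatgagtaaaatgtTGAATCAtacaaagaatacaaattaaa
Serpinb8 (chr1:107589963-107590005, plus strand): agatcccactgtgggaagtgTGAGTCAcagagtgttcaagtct

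Serpinb3a, Serpinb3b and Serpinb3c had no TGANTCA match. They had the TATA letters TATAAA in a stretch nearly shared between them, and these letters lay, on either strand, in 7 of 10 chromosome 1 serpins against 14.3% of all genes. Over 46 bases around them, Serpinb3a was identical to Serpinb3b at 43 positions and to Serpinb3c at 44, and Serpinb3b to Serpinb3c at 45. The windows are shown with the TATA letters in capitals.
Serpinb3a (chr1:107052343-107052388, minus strand): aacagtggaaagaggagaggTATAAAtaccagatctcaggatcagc
Serpinb3b (chr1:107161130-107161175, minus strand): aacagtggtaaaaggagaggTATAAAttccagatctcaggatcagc
Serpinb3c (chr1:107278377-107278422, minus strand): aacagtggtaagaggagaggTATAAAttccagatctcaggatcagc

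The core letters bound by SOX factors, ATTGTT, lay within the window of Klk6, Klk7, Serpinb12, Serpinb3d and Serpinb6d, and in 10.9% of all genes. They are shown in capitals for the 2 kallikreins, Klk7 carrying them as the reverse complement. The KLF letters CCACACCC were found in Serpinb5 and Serpinb12 (3.68% of all genes), and the GRHL letters ACCGGT in none of the 36 genes (2.13% of all genes). A match describes letters and is not evidence of binding.
Klk6 (chr7:43824413-43824458, plus strand): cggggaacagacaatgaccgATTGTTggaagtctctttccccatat
Klk7 (chr7:43811101-43811146, plus strand): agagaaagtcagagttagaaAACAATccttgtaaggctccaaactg

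The libraries held 29393925 to 40419965 estimated counts in oral wild-type tumors, 11735031 and 20431977 in oral KO tumors, 40964171 to 46134532 in pancreatic wild-type tumors and 89562488 to 120482588 in pancreatic KO tumors. Sox2 had 410 to 1487 counts in each wild-type tumor and 0 to 2 in each KO tumor, as labelled. Basal keratinocyte markers were present in every tumor, and none of the 8 was at or under 3 counts in any. Levels are given as CPM, estimated counts scaled to library size and normalised over all 13 tumors by trimmed mean of M-values (TMM). Oral wild-type tumor 4 stood apart, with the highest CPM of the 6 oral tumors for 22 of the 37 genes over 3 counts in at least 1 of them, 11 of these being kallikreins. Skeletal muscle markers summed to 543 CPM in that tumor, 5562 and 3034 CPM in the oral KO tumors, and 5.30 to 8.30 CPM in the other 3 oral wild-type tumors. In oral KO tumor 1, 59.5% of counts fell in protein-coding genes, against 84.5% to 91.7% elsewhere. The part of muscle tissue in the values below was not tested. Depth and RNA composition were varied by refitting and their part was otherwise not tested. With counts thinned to the smallest library, these genes had a median log2 fold change (KO against wild type) of 0.13 in oral and -1.75 in pancreatic tumors. With protein-coding genes alone it was 0.26 and -1.84, beside 0.08 and -1.85 in the main fits.

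Of the 39 genes, 20 exceeded 3 counts in all 13 tumors, and Serpinb9d and Serpinb6e never did. Only genes reaching 10 counts in 2 or more tumors of a comparison were tested, which 34 genes did in at least 1 comparison and 28 in all 4. Serpinb9c, Serpinb9d, Serpinb6d, Serpinb6e and Klk15 did so in none. Serpinb3a to Serpinb3d and Serpinb9d to Serpinb9g share over 25% of their 31-base sequences with other genes, up to 87.3% for Serpinb9f, so their counts may be divided between copies. Serpinb3b and Serpinb3c also overlap on the same strand.

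**Figure D1:**
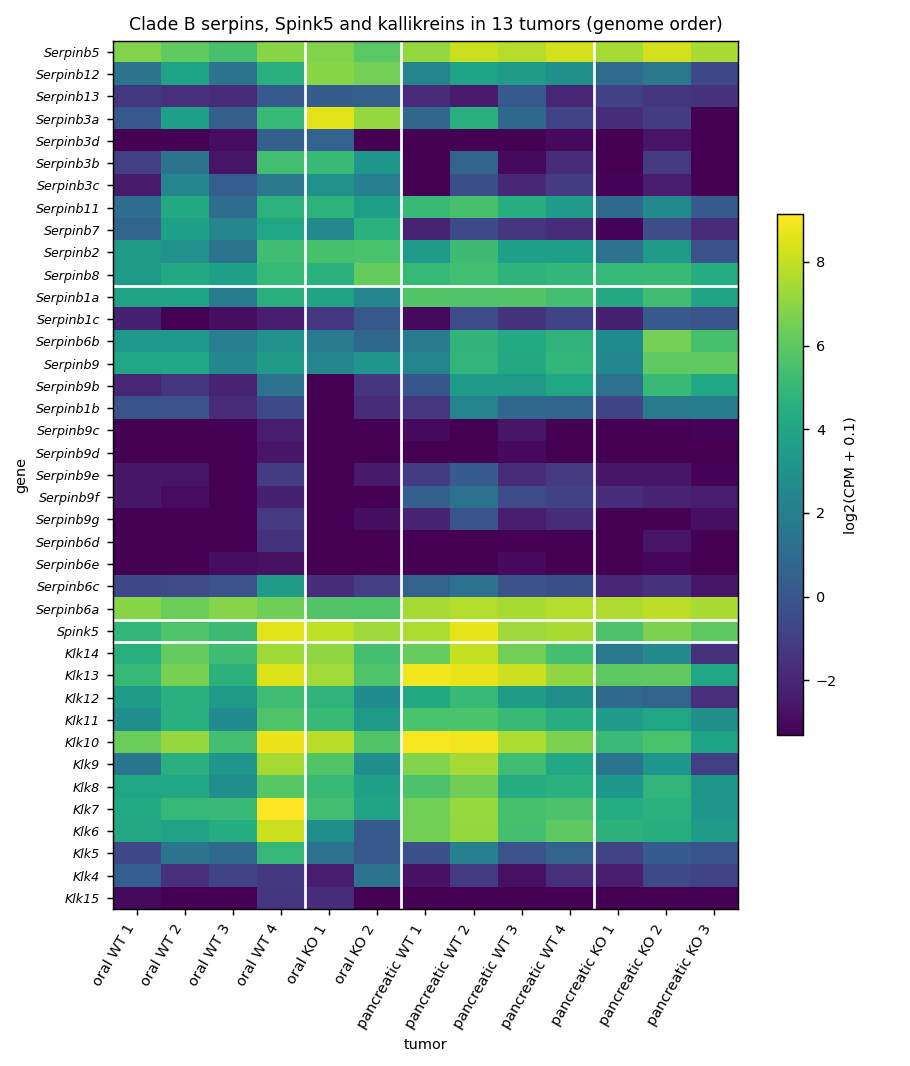
Rows are the 39 genes in genome order and columns the 13 tumors, with colour giving log2(CPM + 0.1), and white lines parting gene clusters and groups. Oral wild-type tumor 4 and both oral KO tumors are bright in the chromosome 1 serpin rows, and the 3 pancreatic KO tumors are dim in the kallikrein rows.

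Kallikreins led in wild-type tumors of both tissues when levels were expressed as CPM per kilobase of exon, the scale on which genes can be set side by side. Klk10 was highest at both sites, at 127 ± 130.1 (SD, n = 4) CPM per kb in oral and 231 ± 146 (SD, n = 4) in pancreatic wild-type tumors. In oral tumors it was followed by Klk7 (85.3), Klk14 (57.9), Klk6 (55.2) and Klk13 (54.8), and in pancreatic tumors by Klk13 (143), Klk14 (93.2), Serpinb5 (86.7) and Klk9 (58.4). The oral order rested on wild-type tumor 4. Without it, an alternative chosen after the values were seen, Klk10 (63.7) and Klk14 (34.3) were followed by Serpinb5 (27.0), Klk13 (22.2) and Serpinb6a (19.7), with Klk7 at 14.9 and Klk6 at 11.8 CPM per kb. In both KO groups a serpin led instead. Serpinb3a stood at 161 ± 102 (SD, n = 2) CPM per kb in oral KO tumors, ahead of Klk10 (102), Klk14 (69.5), Klk13 (48.4) and Serpinb12 (42.5). Serpinb5 stood at 81.7 ± 27.2 (SD, n = 3) in pancreatic KO tumors, ahead of Serpinb6a (38.3), Klk10 (23.8), Klk13 (21.98) and Serpinb6b (21.3). The SDs are large enough that neighbours in the oral and wild-type orders overlap across tumors. With the longest transcript as length, Serpinb6a passed Serpinb5 in pancreatic KO tumors (94.5 against 84.1).

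Deletion of Sox2 was compared first in pancreatic tumors, where the wild-type and KO tumors differed most for the kallikreins. Of 32 genes tested, 25 were lower in KO tumors and 7 higher, with a median log2 fold change of -1.85 beside 0.02 over all 24653 genes. None was called, that is, none had an adjusted p below 0.05 and a fold change beyond 1 on the log2 scale (edgeR quasi-likelihood test, Benjamini-Hochberg over all genes), as 0.629% of all genes did (0.292% lower and 0.337% higher). At an unadjusted p under 0.05, 17 of the 32 were lower and 0 higher (8.77% and 7.11% of all genes), and either way 15.9% of all genes passed. KO tumors lay all below wild-type tumors for 17 genes and all above for 0 (8.75% and 6.8% of all genes). DESeq2 called 15 lower and 0 higher (2.94% and 1.58% of all genes). The count of calls thus depended on the test. The smallest adjusted p among the 32 was 0.0755, for Serpinb6c.

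Klk14, a trypsin-like kallikrein of the shedding cascade, showed the largest difference. It stood at 74.3, 267, 87.8 and 44.3 CPM in the pancreatic wild-type tumors and at 3.04, 5.81 and 0.243 CPM in the KO tumors. The groups did not overlap, and its log2 fold change was -5.29 ± 1.18 (SE), 39.1-fold lower (edgeR adjusted p = 0.0980).

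The protease activity of Klk10 has been hard to show. Klk10 stood at 509.9, 463, 194 and 101 CPM in wild-type and 35.6, 47.8 and 14.8 CPM in KO tumors. Each KO tumor was below each wild-type tumor (log2 fold change -3.27 ± 0.69 (SE), edgeR adjusted p = 0.0906). Its edgeR adjusted p was 0.0491 without pancreatic wild-type tumor 4. Over all alternatives, DESeq2 included, the adjusted p ran from 3.52e-06 to 0.209. Klk13, a kallikrein of the upper epithelial layers, stood at 481, 417, 287 and 133 CPM in wild-type and 65.4, 68.3 and 17.8 CPM in KO tumors, without overlap (log2 fold change -2.70 ± 0.61 (SE), edgeR adjusted p = 0.101).

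Klk9 was at 109.5, 178, 39.6 and 17.5 CPM in wild-type and 2.79, 9.18 and 0.399 CPM in KO tumors. Its wild-type tumors alone spanned a wide range, and its log2 fold change was -4.39 ± 1.25 (SE) (edgeR adjusted p = 0.158). Klk7, a chymotrypsin-like enzyme that cuts corneodesmosin, was at 88.0, 148, 45.9 and 50.9 CPM in wild-type and 20.8, 25.1 and 9.25 CPM in KO tumors. Klk6, a trypsin-like enzyme shared by epithelium and brain, was at 88.3, 143, 43.3 and 65.9 CPM in wild-type and 25.2, 21.3 and 11.6 CPM in KO tumors. Neither overlapped between groups (log2 fold change -2.17 ± 0.52 for Klk7 and -2.13 ± 0.46 for Klk6, SE, edgeR adjusted p = 0.113 and 0.0907). Among the other kallikreins tested, Klk5, Klk8, Klk11 and Klk12 lay between -3.93 and -1.12 on the log2 scale and Klk4 at 1.26, none passing the adjusted test.

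Spink5 was lower in the same pancreatic KO tumors. It stood at 196, 405, 157 and 179 CPM in wild-type and 50.7, 103 and 65.3 CPM in KO tumors. The groups did not overlap (log2 fold change -1.67 ± 0.41 (SE), edgeR adjusted p = 0.114).

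**Figure D2:**
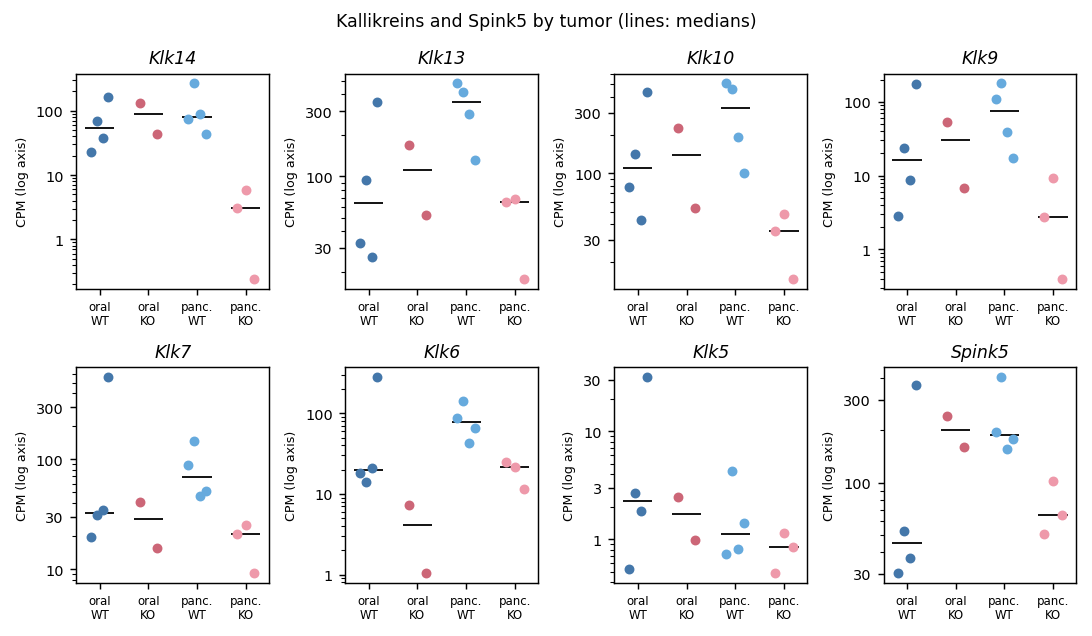
Each panel gives 1 gene, with CPM on a log axis and 1 point per tumor in each of the 4 groups, lines marking medians. Pancreatic KO tumors lie below pancreatic wild-type tumors without overlap for Klk14, Klk13, Klk10, Klk9, Klk7, Klk6 and Spink5, and oral wild-type tumor 4 lies far above the other oral tumors for Klk7 (562 CPM) and Klk6 (280.4 CPM).

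The clade B serpins did not share 1 direction in the pancreatic comparison. On chromosome 1, 10 of 10 tested were below 0 (median log2 fold change -2.04), and on chromosome 13, 4 of 10 were below and 6 above (median 0.23). Serpinb3c and Serpinb9e passed the count filter only through wild-type tumors, which favours a direction below 0. With at least 10 counts in every pancreatic tumor, 5 of 5 chromosome 1 genes were below 0 (median -1.97). On chromosome 13, 2 of 7 were then below 0 and 5 above (median 0.38). Serpinb12, an inhibitor of trypsin-like proteases, stood at 4.62, 14.6, 11.2 and 7.54 CPM in wild-type and 1.97, 2.94 and 0.546 CPM in KO tumors. Serpinb3a, a mouse relative of the human squamous cell carcinoma antigens, stood at 1.60, 23.3, 1.78 and 0.468 CPM in wild-type and 0.210, 0.370 and 0 CPM in KO tumors. Both were lower in each KO tumor than in any wild-type tumor (log2 fold change -2.38 ± 0.62 and -5.14 ± 1.82, SE, edgeR adjusted p = 0.130 and 0.234). The size for Serpinb3a rests on wild-type tumor 2, since the other 3 wild-type tumors were at or under 1.78 CPM. Without that tumor the chromosome 1 genes tested numbered 8, of which 5 were below 0, and their median was -0.90. Without KO tumor 3, 6 of 10 were below 0 (median -1.47).

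Maspin (Serpinb5), a p63-linked epithelial serpin, hardly differed in the means: 143, 286, 212 and 312 CPM in wild-type and 174, 311 and 189 CPM in KO tumors (log2 fold change -0.07 ± 0.31 (SE), edgeR adjusted p = 0.934). On chromosome 13, Serpinb6a, an inhibitor of cathepsin G and related proteases, was at 173, 205, 180.4 and 209 CPM in wild-type and 199, 237 and 185 CPM in KO tumors. Its log2 fold change was 0.12 ± 0.13 (SE) (edgeR adjusted p = 0.700), so these 2 abundant serpins overlapped between groups where most kallikreins did not. Serpinb6b, of the same subfamily, ranged from 3.28 to 28.5 CPM in wild-type tumors and stood at 6.51, 93.2 and 44.9 CPM in KO tumors (log2 fold change 1.31 ± 0.91 (SE), edgeR adjusted p = 0.538).

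Serpinb1a, an inhibitor of neutrophil elastase and cathepsin G, was at 54.1, 51.5, 53.5 and 43.1 CPM in wild-type and 18.2, 40.4 and 15.5 CPM in KO tumors. The groups did not overlap (log2 fold change -1.02 ± 0.32 (SE), edgeR adjusted p = 0.185). KO tumor 2 was nearest to wild type, and without it the log2 fold change was -1.57 (edgeR adjusted p = 0.0183). Over all alternatives, DESeq2 included, the log2 fold change of Serpinb1a ran from -1.57 to -0.78 and its adjusted p from 0.0183 to 0.480. Serpinb9f, a rodent relative of the granzyme B inhibitor Serpinb9, was at 1.31, 2.43, 0.638 and 0.444 CPM in wild-type and 0.201, 0.135 and 0.0953 CPM in KO tumors, without overlap (log2 fold change -3.04 ± 0.66 (SE), edgeR adjusted p = 0.0862). These levels correspond to 11 to 86 counts per tumor. Serpinb9b, of the same subfamily, overlapped between groups, at 0.919, 11.8, 11.1 and 17.0 CPM in wild-type and 2.49, 33.2 and 16.8 CPM in KO tumors.

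Markers of suprabasal keratinocytes lay below 0, as 10 of 11 kallikreins did, while 6 of 10 chromosome 13 serpins lay above 0. All 13 suprabasal markers were below 0 in the pancreatic comparison (median log2 fold change -1.64). Of them 2 were called lower, Krt4 and Krt13, beside 0.292% of all genes. Their summed level was 4450.0 to 8993 CPM in wild-type and 623 to 2493 CPM in KO tumors, with none at or under 3 counts in any tumor. Basal keratinocyte markers overlapped, at 9019 to 16470.0 and 13670.0 to 15290.0 CPM. Pancreatic acinar markers reached 312 CPM in KO tumor 3 and 4.13 to 16.7 CPM in the other pancreatic tumors. The part of cell composition in the kallikrein and serpin values was not tested.

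In oral tumors the same deletion was set against the same genes. Of 29 tested, 16 were higher and 13 lower in KO tumors, with a median log2 fold change of 0.08 beside -0.00 over all 22342 genes. None met the rule of the adjusted test in edgeR, which 11.7% of all genes did (8.81% higher and 2.89% lower). At an unadjusted p under 0.05, 3 were higher and 2 lower (19.7% and 15.7% of all genes, 35.4% together). KO tumors lay all above wild-type tumors for 4 genes and all below for 4 (22.4% and 25.5% of all genes). DESeq2 called 3 higher (Serpinb8, Serpinb3a and Serpinb12) and 1 lower (Serpinb6b), beside 11.7% and 6.26% of all genes. These shares are near or under the background, and the 2 KO libraries were the shallowest of the series. Oral wild-type tumor 4 weighed on the counts. Without it, 6 were called higher (Serpinb8, Serpinb3a, Serpinb13, Serpinb12, Serpinb2 and Spink5, 8.72% of all genes), 0 were called lower (3.43%) and the direction of most kallikreins turned, from 7 of 11 below 0 to 10 of 11 above 0.

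The 2 serpin clusters lay on opposite sides in the oral comparison. On chromosome 1, 11 of 11 tested were above 0 (median log2 fold change 1.47), and on chromosome 13, 6 of 6 were below 0 (median -1.20). Of the chromosome 13 genes, Serpinb6c and Serpinb1b passed the count filter only through wild-type tumors, which favours a direction below 0. With at least 10 counts in every oral tumor, 7 of 7 chromosome 1 genes were above 0 (median 1.58). On chromosome 13, 4 of 4 were then below 0 (median -0.71). Across the alternatives run, at least 8 of the chromosome 1 genes stayed above 0 except where only 7 could be tested, and at most 1 chromosome 13 gene crossed to above 0. Genes of a cluster share tumors and, in part, sequence, and are not independent.

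Serpinb3a had the largest difference, at 0.949, 13.2, 1.27 and 32.1 CPM in the oral wild-type tumors and 381 and 145 CPM in the KO tumors. Both KO tumors lay above the highest wild-type tumor (log2 fold change 4.57 ± 1.34 (SE), 23.7-fold higher, edgeR adjusted p = 0.0661). Its 3841 and 3725 counts may include reads of Serpinb3b and Serpinb3c, which held 351 and 85 counts in the first and 235 and 102 in the second of these tumors. Serpinb12 was at 2.67, 14.7, 2.60 and 24.0 CPM in wild-type and 121 and 91.2 CPM in KO tumors, again without overlap (log2 fold change 3.36 ± 0.90 (SE), 10.3-fold higher, edgeR adjusted p = 0.0538). Without oral wild-type tumor 4 the edgeR adjusted p was 0.0421 for Serpinb3a and 0.0342 for Serpinb12. Leaving out any other single oral wild-type tumor gave no call for either. Over the alternatives the log2 fold change ran from 3.67 to 6.02 for Serpinb3a and from 3.04 to 4.14 for Serpinb12. Serpinb3b, in contrast, had its highest level in wild-type tumor 4 (40.6 CPM, against 34.9 and 9.17 CPM in the KO tumors), and its groups overlapped.

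Serpinb6a stood at 122, 79.6, 117 and 83.1 CPM in wild-type and 54.1 and 51.7 CPM in KO tumors. Each KO tumor was below each wild-type tumor (log2 fold change -0.85 ± 0.25 (SE), edgeR adjusted p = 0.0614). Serpinb6b was at 9.80, 9.85, 3.90 and 8.04 CPM in wild-type and 3.48 and 1.68 CPM in KO tumors, also without overlap (log2 fold change -1.54 ± 0.52 (SE), edgeR adjusted p = 0.0850). Serpinb1a overlapped, at 15.4, 14.9, 3.80 and 23.2 CPM in wild-type and 15.5 and 5.11 CPM in KO tumors. Serpinb5 overlapped too, at 109.7, 67.3, 45.7 and 119 CPM in wild-type and 108 and 62.2 CPM in KO tumors (log2 fold change 0.08 ± 0.42 (SE), edgeR adjusted p = 0.906).

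**Figure D3:**
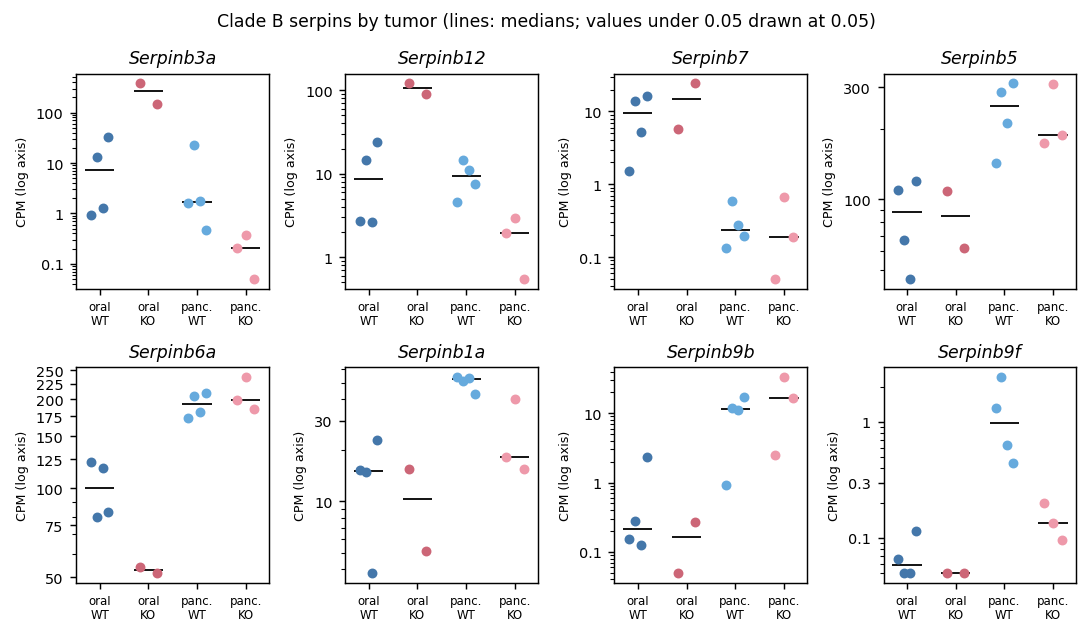
Each panel gives 1 clade B serpin, with CPM on a log axis, 1 point per tumor and lines at group medians, values under 0.05 CPM being drawn at 0.05. Serpinb3a and Serpinb12 are highest in the 2 oral KO tumors, Serpinb7 is at or above 1.52 CPM in all 6 oral tumors, and Serpinb6a is lowest in the 2 oral KO tumors.

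The abundant kallikreins overlapped between oral groups. Klk10 was at 78.0, 141, 42.9 and 435 CPM in wild-type and 227 and 53.2 CPM in KO tumors, Klk13 at 32.6, 94.7, 25.8 and 351 against 170.3 and 52.1 CPM, and Klk14 at 22.5, 70.4, 37.9 and 163 against 134 and 43.2 CPM. Their log2 fold changes were -0.21 ± 0.99, -0.08 ± 1.11 and 0.36 ± 0.82 (SE, edgeR adjusted p = 0.898, 0.967 and 0.780).

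Klk6 was at 18.3, 14.1, 21.2 and 280.4 CPM in oral wild-type and 7.25 and 1.05 CPM in KO tumors. Among the kallikreins it alone had both KO tumors below every wild-type tumor, and its log2 fold change was -4.30 ± 1.83 (SE, edgeR adjusted p = 0.147). Without wild-type tumor 4 it was -2.05, and over the alternatives it ran from -6.25 to -2.05, with adjusted p from 0.0419 to 0.396. Klk7 was at 19.6, 30.9, 34.3 and 562 CPM in wild-type and 41.0 and 15.6 CPM in KO tumors, and its log2 fold change of -2.43 ± 1.63 (SE) became 0.10 without wild-type tumor 4. Klk9 was at 2.80, 24.0, 8.84 and 175 CPM in wild-type and 53.5 and 6.87 CPM in KO tumors, with overlap.

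In the oral comparison 8 of 13 suprabasal markers were above 0 (median log2 fold change 0.45). Of them 1 was called higher, Krt4, beside 8.81% of all genes. They summed to 1622, 3980.0, 1349 and 7394 CPM in wild-type and 8650.0 and 3022 CPM in KO tumors, with tumor 4 and KO tumor 1 the highest. Neutrophil markers summed to 24.5, 57.7, 30.98 and 370.2 CPM in wild-type and 505 and 86.3 CPM in KO tumors, again highest in tumor 4 and KO tumor 1. Of these 7 genes, 1 was at or under 3 counts in every oral tumor but wild-type tumor 4. Of the 6 tested, 4 were above 0 and 2 below, and none was called. Macrophage markers, none at or under 3 counts in any tumor, summed to 151.7, 279.9, 300.6 and 211.2 CPM in wild-type and 77.8 and 105.0 CPM in KO tumors. The macrophage sums did not overlap and were lower in KO tumors, as were the levels of Serpinb6a and Serpinb6b. Of the 6 macrophage markers, 5 were below 0 and 1 above, and 1 was called lower (2.89% of all genes). Cd14 was the one above, at 9.49, 11.7, 12.4 and 10.4 CPM in wild-type and 14.2 and 13.5 CPM in KO tumors. The part of these cell types in the serpin values was not tested.

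**Figure D4:**
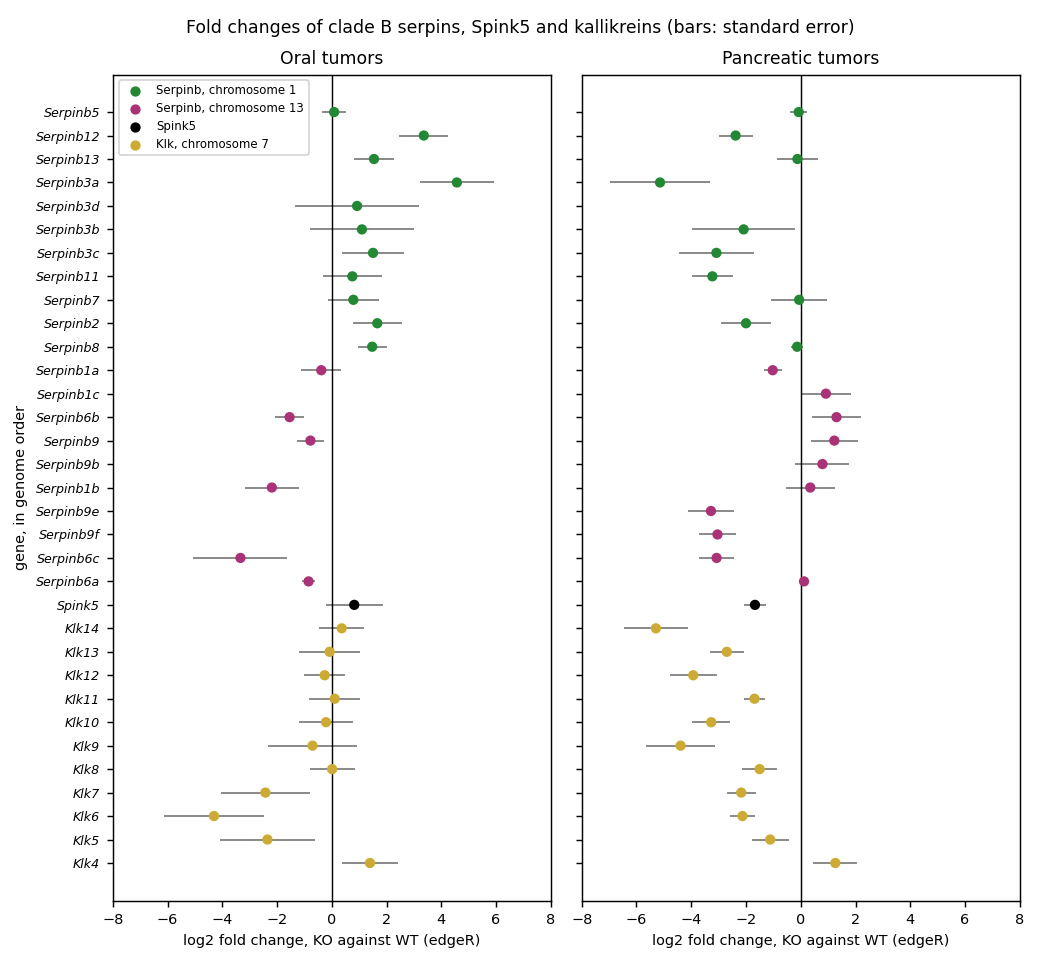
Points give the log2 fold change of KO against wild-type tumors by edgeR in oral (left) and pancreatic (right) tumors, with bars of 1 standard error, for each gene tested in at least 1 of them. Chromosome 1 serpins lie right of 0 in oral and left of 0 in pancreatic tumors, and 10 of 11 kallikreins lie left of 0 in pancreatic tumors.

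Whether the effect of the deletion differed between tissues was tested as an interaction over all 13 tumors, the pancreatic minus the oral log2 fold change. Of 34 genes, 3 were called below 0 and 1 above, beside 7.41% and 4.85% of all 25836 genes (12.3% together), which is close to the background. Unadjusted p was under 0.05 for 9 below and 2 above (16.7% and 17.3% of all genes, 34.0% together), and DESeq2 called 6 below and 2 above (10.6% and 7.77%). The median was -1.57 beside 0.03 over all genes. Serpinb3a differed by -9.62 ± 2.39 (SE, edgeR adjusted p = 0.0248), Serpinb12 by -5.66 ± 1.19 (adjusted p = 0.0150) and Klk14 by -5.55 ± 1.44 (adjusted p = 0.0286). For Serpinb3a and Klk14 every pancreatic KO tumor was below every other tumor, while for Serpinb12 they overlapped 2 oral wild-type tumors. For Serpinb3a and Serpinb12 the oral KO tumors were also the highest group, and for Klk14 the oral groups overlapped.

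Serpinb6a differed the other way, by 1.04 ± 0.26 (SE, edgeR adjusted p = 0.0234), with lower levels in oral KO tumors and overlapping levels in pancreatic tumors. Its call ended in 10 of 21 alternatives. Over all 21 the difference lay between 0.83 and 1.16, around the fold threshold of 1, and adjusted p reached 0.0685. Over the alternatives the adjusted p ranged from 2.07e-05 to 0.0565 for Serpinb12, from 0.0175 to 0.0629 for Serpinb3a and from 0.000490 to 0.0867 for Klk14. Without oral KO tumor 1 or without pancreatic KO tumor 1 the calls of Serpinb3a (0.0584 and 0.0564) and Klk14 (0.0867 and 0.0580) were lost, and that of Serpinb3a also without pancreatic KO tumor 2 (0.0526) or 3 (0.0629). Without oral wild-type tumor 4, 11 genes were called below 0 and 1 above (9.39% and 5.93% of all genes).

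The tissues were then compared without the deletion, as oral minus pancreatic wild-type tumors. Of 33 genes tested, 1 was higher and 4 lower in oral tumors, beside 9.3% and 7.24% of all 23164 genes (16.5% together), and the median was -0.78 beside 0.00. Serpinb7 (megsin), an epidermal serpin whose loss in people causes a palmoplantar keratosis, was 30.7-fold higher in oral tumors, at 1.52, 13.9, 5.19 and 16.2 against 0.131, 0.594, 0.274 and 0.197 CPM. All 4 oral tumors exceeded all 4 pancreatic tumors (log2 fold change 4.94 ± 0.83 (SE), edgeR adjusted p = 0.00439). Oral KO tumors held 5.76 and 24.4 CPM and pancreatic KO tumors 0.00874, 0.662 and 0.191 CPM of it, so the tissue order was the same after deletion.

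The 4 genes lower in oral tumors were Serpinb5, Serpinb1a, Serpinb9b and Serpinb9f. The oral wild-type levels of Serpinb5 and Serpinb1a, given above, were all below the pancreatic ones (log2 fold change -1.48 ± 0.35 and -1.82 ± 0.44, SE, edgeR adjusted p = 0.0169 and 0.0195). Serpinb9f stood at 0.0662, 0.0308, 0 and 0.115 CPM in oral wild-type tumors, 5 counts or fewer, and at 0 in both oral KO tumors (log2 fold change -4.33 ± 0.80 (SE), edgeR adjusted p = 0.00569). Serpinb9b stood at 0.154, 0.277, 0.127 and 2.37 CPM in oral wild-type tumors and at 0 and 0.273 CPM in oral KO tumors, its oral tumor 4 overlapping pancreatic tumor 1 (log2 fold change -3.77 ± 1.15 (SE), edgeR adjusted p = 0.0442). Its adjusted p rose to between 0.0835 and 0.104 when oral wild-type tumor 1, 2 or 3 or pancreatic wild-type tumor 2, 3 or 4 was left out, and its call also ended with no filter on counts. Without oral wild-type tumor 4 its log2 fold change was -5.76. In all, 4 genes had an unadjusted p under 0.05 and were higher and 8 lower (19.1% and 17.7% of all genes, 36.8% together), DESeq2 called 2 higher and 4 lower (10.7% and 8.65%), and oral tumors lay all above for 1 gene and all below for 4 (14.2% and 13.8%).

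Serpinb6a was also lower in every oral tumor (log2 fold change -0.93 ± 0.17 (SE), edgeR adjusted p = 0.00516), under the fold threshold, which it passed without oral wild-type tumor 1 (-1.04) or 3 (-1.01). The kallikreins and Spink5 overlapped between tissues, with log2 fold changes from -1.38 (Klk13) to 2.35 (Klk5) and none called, 1 having an unadjusted p under 0.05 and DESeq2 calling 0. Without oral wild-type tumor 4, 11 of the serpin and kallikrein genes were called lower in oral tumors and 1 higher (8.94% and 9.19% of all genes), and Klk13 was one of them (-2.69, edgeR adjusted p = 0.0117). Simple epithelial markers, all 5 called lower in oral tumors (7.24% of all genes), summed to 151 to 486 CPM there and 1487 to 2748 CPM in pancreatic wild-type tumors. Fibroblast markers, all 6 called higher (9.3% of all genes), summed to 8667 to 19010.0 and 1118 to 2198 CPM. Their part in these differences was not tested.

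Kallikrein output was then described as a whole, with the kallikreins summed. The sum was 211, 443, 197 and 2149 CPM in oral wild-type, 730.1 and 207 CPM in oral KO, 1470.0, 1790.0, 764 and 468 CPM in pancreatic wild-type and 176, 226 and 72.3 CPM in pancreatic KO tumors. Klk10 gave 23.9% to 41.2% of the sum per kb in all 13 tumors, so its share changed far less than its level. Klk14 gave 6.49% to 18.4% in pancreatic wild-type tumors and 2.34%, 3.38% and 0.436% in KO tumors, and 9.67% to 25.4% in the oral tumors. Klk6 gave 3.21% to 13.9% in oral wild-type tumors and 1.00% and 0.521% in oral KO tumors, but 6.20% to 17.5% in the pancreatic tumors. Shares of 1 sum are not independent of each other and were not tested.

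Spink5 was also set against its targets, a ratio chosen after the values were seen and given with no test. The level of Spink5 per kb over that of Klk5, Klk7 and Klk14 together was 0.223, 0.150, 0.157 and 0.171 in oral wild-type and 0.395 and 0.783 in oral KO tumors. It was 0.390, 0.291, 0.349 and 0.595 in pancreatic wild-type and 0.773, 1.16 and 2.39 in pancreatic KO tumors. KO tumors were above wild-type tumors of the same tissue in both, although the levels of Spink5 itself were lower in pancreatic KO tumors. Against all 12 kallikreins the oral groups remained apart (0.0380 to 0.0595 against 0.107 and 0.252) and the pancreatic groups overlapped (0.0456 to 0.130 against 0.104 to 0.312).

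**Figure D5:**
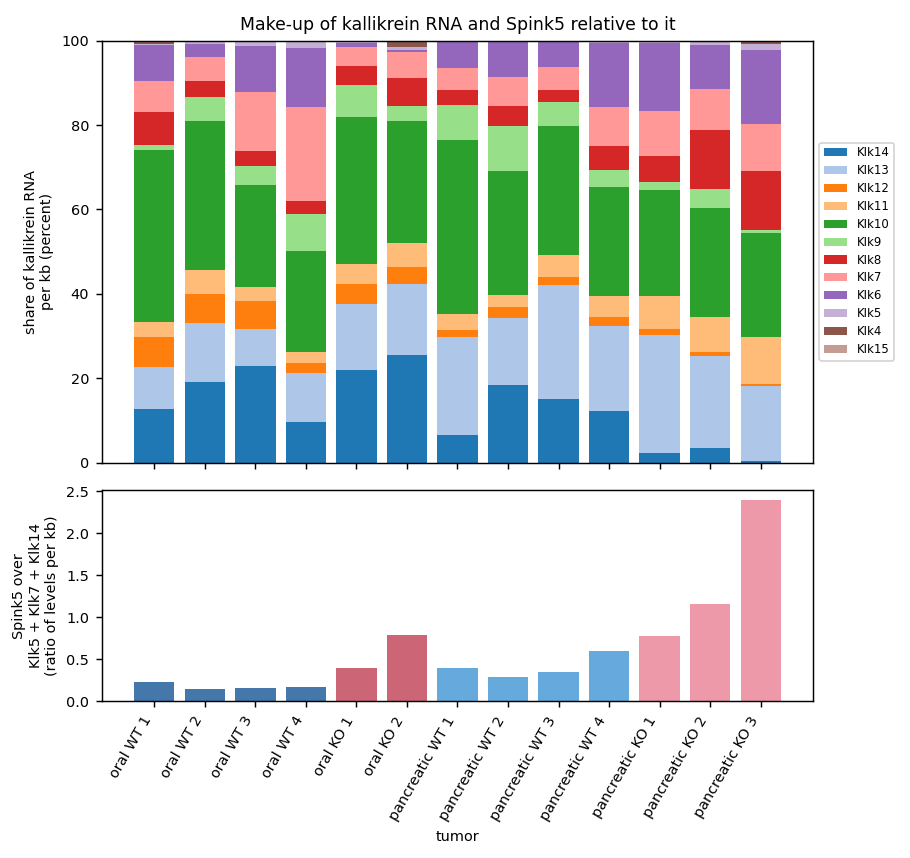
The upper panel stacks each kallikrein's percent of the summed kallikrein RNA per kb in each of the 13 tumors, and the lower panel gives the ratio of Spink5 to Klk5, Klk7 and Klk14 in levels per kb. Klk14 shrinks to 0.436% to 3.38% in the 3 pancreatic KO tumors, and the ratio is highest in pancreatic KO tumor 3 (2.39).

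Genes that work beside these proteases were read from lists. Of 21 other surface serine proteases and their inhibitors tested, 3 were called lower and 0 higher in pancreatic KO tumors (0.292% and 0.337% of all genes), 19 lay below 0, and the median log2 fold change was -1.12. They were Wfdc5, a whey acidic protein family inhibitor (-2.65, edgeR adjusted p = 0.0253), and the proteases Prss22 (-2.09, adjusted p = 0.0455) and Prss27 (-2.21, adjusted p = 0.0379). In oral tumors none of the 21 was called by edgeR or DESeq2, and 2 had an unadjusted p under 0.05 (35.4% of all genes). Between wild-type tissues 10 were lower in oral tumors and 1 higher, beside 7.24% and 9.3% of all genes. Among the lower were the membrane-anchored channel-activating proteases Prss8 (-2.71, edgeR adjusted p = 0.00848) and St14 (-1.23, adjusted p = 0.00286) and their inhibitors Spint1 (-1.07, adjusted p = 0.00868) and Spint2 (-1.04, adjusted p = 0.00225).

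Of 10 substrates and receptors of the epidermal kallikreins, 9 lay below 0 in the pancreatic comparison with a median of -1.52. None was called by edgeR, 8 had an unadjusted p under 0.05 (15.9% of all genes), and DESeq2 called 6 lower (2.94% of all genes). Corneodesmosin (Cdsn, -3.87), desmocollin 1 (Dsc1, -2.77) and desmoglein 1a (Dsg1a, -1.58), the adhesion proteins that kallikreins cut, were among them (edgeR adjusted p = 0.111, 0.114 and 0.0965). In oral tumors 1 of 10 was called, Il1b, higher by 2.13 (edgeR adjusted p = 0.0189), beside 8.81% of all genes called higher. Il1b encodes a cytokine that serine proteases can mature.

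Of 21 cystatins, cathepsins and other cornification proteases, 3 were called lower in oral KO tumors, the lysosomal proteases Ctsb (-1.15), Ctsd (-1.04) and Ctss (-1.99), with edgeR adjusted p of 0.0381, 0.0313 and 0.0126 (2.89% of all genes were called lower). The macrophage marker sums, given above, were lower in the same tumors, and the part of macrophages in this was not tested. None was called in pancreatic KO tumors by edgeR, while 9 had an unadjusted p under 0.05 and DESeq2 called 6 lower (15.9% and 2.94% of all genes). Of the granzymes, neutrophil and mast cell proteases, plasminogen activators and Casp1 that clade B serpins inhibit, none was called by edgeR in oral or pancreatic KO tumors. In oral tumors 6 were tested, 2 had an unadjusted p under 0.05 and DESeq2 called 1 lower (35.4% and 6.26% of all genes). In pancreatic tumors 8 were tested, with 3 and 2 (15.9% and 2.94% of all genes). The plasminogen activator partners gave no edgeR or DESeq2 call in either (3 and 4 tested, 0 and 1 with an unadjusted p under 0.05). Among 17 serpins of other clades tested in oral KO tumors, Serpinc1 rose (2.62) and Serping1 fell (-1.09), with edgeR adjusted p of 0.0168 and 0.0249. Over all genes 8.81% were called higher and 2.89% lower. None of the 20 tested was called in pancreatic KO tumors. There 4 had an unadjusted p under 0.05 (15.9% of all genes), and DESeq2 called 1 higher and 1 lower (1.58% and 2.94% of all genes). Of the 14 other kallikreins 2 were tested in each tissue, and none was called by edgeR. In oral tumors 1 had an unadjusted p under 0.05 and DESeq2 called 1 higher (35.4% and 11.7% of all genes), and in pancreatic tumors 0 and 0. Of 6 other Spink genes tested in oral tumors, Spink8 was called lower (edgeR adjusted p = 0.0281), beside 2.89% of all genes. It had 0 counts in both KO tumors, so that its fitted fold change is not given. Of 5 tested in pancreatic tumors none was called by edgeR or DESeq2, and 1 had an unadjusted p under 0.05 (15.9% of all genes).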

How the data were processed

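Total RNA of 13 tumors was depleted of ribosomal RNA and sequenced from stranded libraries. The authors trimmed reads with Trim Galore 0.6.10, checked them with FastQC 0.12.1 and quantified them with kallisto 0.50.0 on GRCm38, per the submitters' processing notes. The deposited values are estimated counts per gene, of which 27.3% are not whole, and they were rounded. Which tumors came from which mice is not given, so p-values measure the spread between these tumors.

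Genes reaching 10 counts in 2 or more tumors were tested with edgeR 4.0.16 (TMM, robust quasi-likelihood, two-sided, Benjamini-Hochberg over all genes tested), by tissue and, for the interaction, over all 13 tumors. Called means adjusted p below 0.05 with a log2 fold change beyond 1 in size. CPM values were computed with TMM-scaled library sizes. SE is that of the log2 fold change, derived as its absolute value over the square root of the quasi-likelihood F statistic. DESeq2 1.42.0, other filters, scalings and sample sets were alternatives. The fits were tested on simulated data. Named genes were those called in any comparison or among the 5 highest per kb of any group. Spink5 and those named in counts of 5 or fewer were added after their values were seen. The members and lists were chosen with earlier results of these data known. Gene types, lengths and positions came from GENCODE on GRCm38, and upstream windows from RefSeq (GRCm38.p6). Most same-numbered tumors did not deviate together, and no block was used.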

Additional observations from a re-analysis of the deposited data

Results flagged for a closer look

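In 5 of the 30 gene and group combinations checked, 1 tumor stood far from the other 3, where about 1 in 20 is flagged by chance. The combinations share tumors and are not independent. Klk6 and Klk7 were among the genes checked only through their oral wild-type levels per kb, which rested on tumor 4. The count of 5 therefore cannot be judged against that rate. In oral wild-type tumors it was tumor 4 each time, with Klk6 at 280 CPM, Klk7 at 562 CPM, Klk9 at 175 CPM and Serpinb9b at 2.37 CPM. In pancreatic wild-type tumors it was tumor 2, with Serpinb3a at 23.3 CPM.

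The effect of the deletion differed between tissues by the interaction test for 4 genes, given as the pancreatic minus the oral log2 fold change. Of all genes 12.3% were called, so the count of 4 among 34 is near the background. These were Serpinb3a (-9.62), Serpinb12 (-5.66), Klk14 (-5.55) and Serpinb6a (1.04).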

How the results depend on the processing

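Of the kallikrein and serpin genes, 0 were called higher in oral KO tumors, which became 1 with at least 10 counts in every tumor, 1 without robust dispersions, 3 with DESeq2, 4 in 1 fit of all 13 tumors and 0 to 6 on leaving out 1 tumor. Those called lower became 1 with DESeq2 and 1 in the fit of all tumors, from 0. In pancreatic KO tumors 0 called lower became 1 with no count filter, 15 with DESeq2 and 0 to 2 on leaving out 1 tumor. In the interaction, 3 below 0 became 1 with no count filter, 6 with DESeq2 and 1 to 11 on leaving out 1 tumor, and 1 above 0 became 0 with the strict filter, with protein-coding genes alone and with thinned counts, 2 with DESeq2 and 0 to 1 on leaving out 1 tumor. Between wild-type tissues, 4 lower became 2 with the strict filter and 3 to 11 on leaving out 1 tumor, and 1 higher became 0 with the strict filter, 2 with DESeq2 and 1 to 2 on leaving out 1 tumor. The oral median of 0.08 turned to -0.33 with no count filter, to -0.14 in the fit of all tumors, and ranged from -0.75 to 1.04 on leaving out 1 tumor. The interaction of Serpinb9f, 1.55, turned to -0.74 with DESeq2 and -0.60 with thinned counts. The cause was not tested.

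The tumor number as a replicate block, a number that the tumors only share (correlations of deviations -0.08 and -0.04 for oral, 0.32, -0.02 and -0.07 for pancreatic tumors), gave 13 called lower and 1 higher in pancreatic KO tumors (1.63% and 0.767% of all genes) and 2 higher between wild-type tissues (7.03%). It turned oral Klk7 from -2.43 to 0.13, and on leaving out 1 tumor it ranged from -3.32 to 0.10, the latter without oral wild-type tumor 4. The calls of the 4 genes in the interaction were lost under it.

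With 2 oral KO tumors and widely spread wild-type tumors, oral log2 fold changes as large as -4.30 (Klk6) and -2.43 (Klk7) did not pass the test. Counts of Serpinb3 and Serpinb9 paralogs depend on how reads were shared.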
